A study of Homo sapiens with 18 samples.

Results

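A set of 7 genes that encode transcriptional coregulators was followed across the MCF10A-ErSrc oncogenesis model: the coactivators NCOA1, NCOA2, NCOA3 and NCOA6, the corepressor NCOR1, and the acetyltransferases CREBBP (CBP) and EP300 (p300). They were chosen by name and looked up as gene ID rows in the 8 RNA-Seq tables, and any annotated transcription start site (TSS) of theirs was looked up in 4 lists of RNA polymerase II (RNAPII) peaks. The 7 genes hold 8 of the 23604 entries of the tables, because NCOA6 has a gene ID entry and a further entry named by a RefSeq transcript, NM_001318240. All 8 passed the filter on low counts, which kept 16948 entries. The choice was made with earlier results of the triptolide (TPL) comparisons known, so the values of the members with TPL are given as a description without a test.

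MCF10A-ErSrc is a human breast epithelial line that carries the v-Src oncoprotein fused to the ligand-binding domain of the oestrogen receptor, so that tamoxifen switches v-Src on. Cells without tamoxifen (NT) and cells transformed with tamoxifen (TAM) were incubated for 4 h with TPL, an inhibitor of the XPB subunit of the transcription factor TFIIH, or with DMSO as the control. Each of the groups NT, NT + TPL, TAM and TAM + TPL has 2 RNA-Seq libraries and 1 deposited RNAPII peak list. Every group is the same engineered line, so the differences between NT and TAM cells are those of 1 model, and no cells free of the fusion were sequenced. The libraries hold between 7461309 and 8349448 expected counts. Of 10 epithelial markers, 9 were above 1 FPKM (fragments scaled to transcript length and to the mapped reads of the library) in all 8 libraries, and the exception, TP63, reached 0.28 FPKM at its lowest. Among 10 markers of blood, endothelial, stromal and fat cells, CDH5 was listed at 0 throughout, 5 were below 1 FPKM in every library, and CD14 was the highest at 5.75 to 18.6 FPKM. The summed level of the epithelial markers, mostly KRT5 and KRT17, differed between the groups, at 13797 to 15509 FPKM (NT), 10119.7 to 12385 (NT + TPL), 3813 to 4054 (TAM) and 2259 to 2426 FPKM (TAM + TPL). That of the other markers was 15.2 to 18.1 (NT), 23.4 to 29.6 (NT + TPL), 9.69 to 10.7 (TAM) and 11.8 to 13.4 FPKM (TAM + TPL). The part of these differences in the results was not tested.

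Nuclear receptors bind DNA and recruit coregulators that open or close chromatin. NCOA1, NCOA2 and NCOA3 form the p160 family, which docks onto ligand-bound receptors and brings in CBP and p300, the enzymes that acetylate histones at enhancers and promoters. NCOA6 is a subunit of the histone methyltransferase complexes built around KMT2C and KMT2D, and NCOR1 is the scaffold that holds the deacetylase HDAC3 on receptors without ligand. In breast tissue NCOA3, also called AIB1, is known as a gene amplified in tumours.

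The 7 genes are long. On GRCh37 (hg19), with GENCODE release 44 placed on that build, NCOA1 spans chr2:24714123-24993571 on the plus strand and NCOA2 chr8:71022017-71316043 on the minus strand. NCOA3 lies at chr20:46130631-46285616 (plus) and NCOA6 at chr20:33302578-33413454 (minus). NCOR1 covers chr17:15932471-16118848 (minus), CREBBP chr16:3775055-3930714 (minus) and EP300 chr22:41488596-41576081 (plus). The shortest, EP300, spans 87.5 kb and is longer than 82.7% of the 11730 protein-coding genes with a mean of at least 1 FPKM, and the longest, NCOA2, spans 294 kb and is longer than 97.7% of them. Their canonical transcripts have between 15 exons (NCOA6) and 46 exons (NCOR1).

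For NCOA3, NCOA6, NCOR1, CREBBP and EP300 a listed RNAPII peak covered the main TSS, that of the canonical transcript, in all 4 lists. The 200 bases before those 5 start sites are shown. Each retained peak also runs past its TSS into the gene, so this window holds only a part of it. The bases are GRCh37 sequence read 5′ to 3′ on the strand of the gene, and capitals mark matches to any of 8 short motifs searched on both strands. NCOA3 is chr20:46130431-46130630, NCOA6 chr20:33413455-33413654, NCOR1 chr17:16118849-16119048, CREBBP chr16:3930715-3930914 and EP300 chr22:41488396-41488595.

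NCOA3: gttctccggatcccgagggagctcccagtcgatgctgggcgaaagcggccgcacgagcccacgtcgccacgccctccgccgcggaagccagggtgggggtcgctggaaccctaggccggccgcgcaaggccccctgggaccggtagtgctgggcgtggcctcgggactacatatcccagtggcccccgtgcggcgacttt

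NCOA6: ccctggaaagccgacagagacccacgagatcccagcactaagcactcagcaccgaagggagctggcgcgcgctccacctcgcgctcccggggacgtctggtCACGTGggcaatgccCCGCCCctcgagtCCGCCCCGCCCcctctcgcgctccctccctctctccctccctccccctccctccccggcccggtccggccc

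NCOR1: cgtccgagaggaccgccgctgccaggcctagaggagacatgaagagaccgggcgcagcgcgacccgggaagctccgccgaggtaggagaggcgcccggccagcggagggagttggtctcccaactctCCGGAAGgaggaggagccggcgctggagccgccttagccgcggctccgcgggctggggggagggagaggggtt

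CREBBP: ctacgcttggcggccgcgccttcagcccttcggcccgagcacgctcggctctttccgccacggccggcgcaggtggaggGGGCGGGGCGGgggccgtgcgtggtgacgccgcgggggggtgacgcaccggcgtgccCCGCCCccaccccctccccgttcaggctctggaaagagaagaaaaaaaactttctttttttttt

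EP300: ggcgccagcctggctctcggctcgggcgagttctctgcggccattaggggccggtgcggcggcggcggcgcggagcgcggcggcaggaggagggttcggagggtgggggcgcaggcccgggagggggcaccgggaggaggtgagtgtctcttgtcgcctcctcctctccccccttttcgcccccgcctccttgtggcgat

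The capitals in NCOA6 are a canonical E-box (CACGTG) and 3 GC boxes (GGGCGG or its reverse complement CCGCCC, of which a pair overlaps by 1 base). CREBBP also has 3 GC boxes, with the pair nearer the 5′ end overlapping by 1 base. NCOR1 has 1 ETS core (CCGGAAG), and NCOA3 and EP300 hold none of the 8 motifs. Over the 7 members, 3 promoters held a GC box (NCOA1, NCOA6 and CREBBP), against 56.5% of 19855 protein-coding promoters of the same length. Among promoters of genes with at least 1 FPKM the share was 68.5%. The E-box stood in 1 of 7 against 6.95% of all and 8.13% of those promoters, and the ETS core in 1 of 7 against 10.9% and 15.4%. None of the 7 held the CCAAT box (CCAAT, 30.4% of all promoters), the TATA box (TATAAA, 7.74%), the CRE (TGACGTCA, 2.29%), the AP-1 site (TGACTCA, 2.49%) or the NRF1 core (GCGCATGCG, 2.29%). GC content lay between 67.0% (NCOA2) and 88.0% (NCOA1), beside a median of 67.5% over promoters of genes with at least 1 FPKM. These matches describe letters in a window and not bound factors.

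In cells with DMSO the members covered a wide span of levels. On the FPKM scale, which corrects for transcript length, NCOR1 was the highest, at 21.59 and 20.81 in the NT libraries and 21.35 and 20.4 in the TAM libraries. NCOA3 read 10.7 and 16.95 in NT and 12.17 and 9.97 in TAM, and the NCOA6 gene ID entry 8.15 and 17.25 in NT and 12.54 and 9.28 in TAM. These values overlap, so NCOA3 and the NCOA6 gene ID entry cannot be ordered. EP300 (6.61, 7.9, 8.91 and 6.78) and CREBBP (6.19, 8.35, 7.6 and 4.94, NT then TAM) came next and overlapped as well. NCOA1 was at 4.34 and 5.97 in NT and at 6.36 and 6.6 in TAM. NCOA2 was the lowest member in each of the 4 DMSO libraries, at 1.5 and 3.03 in NT and 1.96 and 1.65 in TAM.

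**Figure D1:**
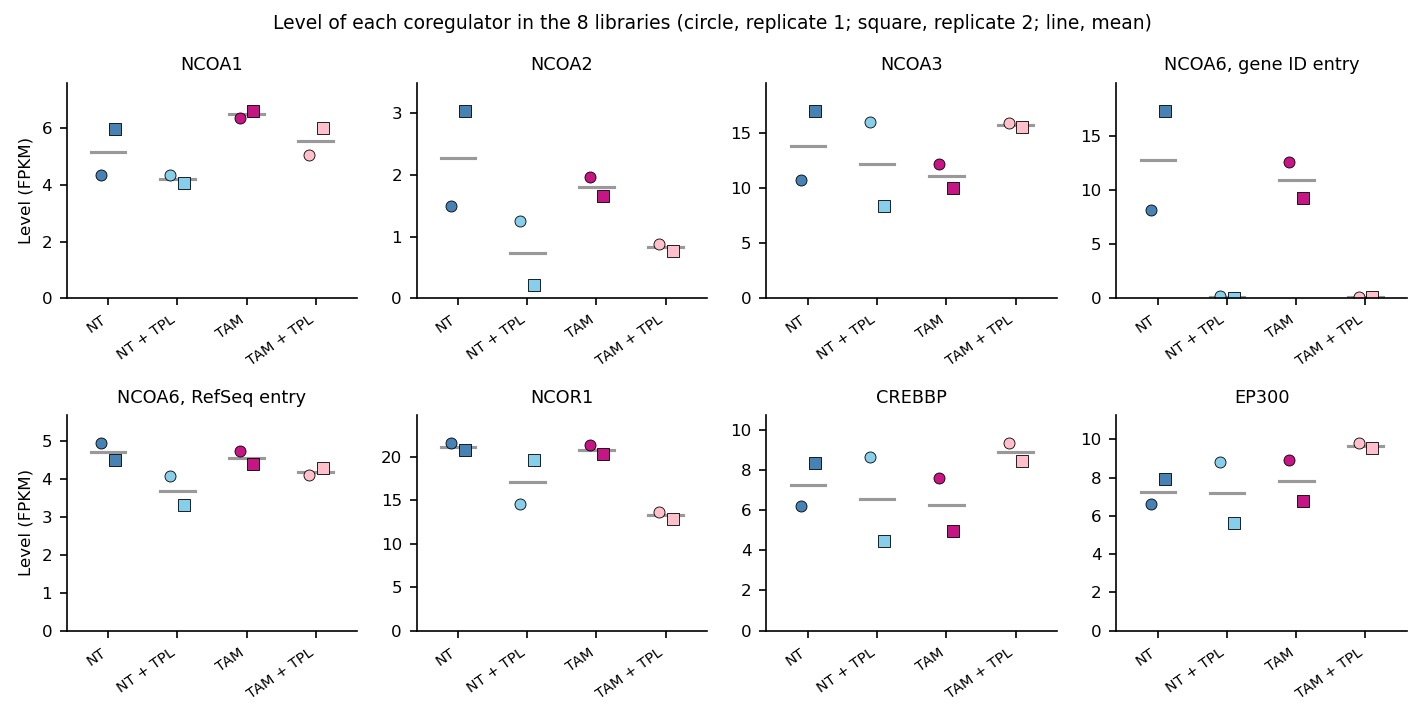
Level in FPKM (vertical axis, each panel starting at 0 with its own scale) of each coregulator entry in the NT, NT + TPL, TAM and TAM + TPL libraries, with circles for replicate 1, squares for replicate 2 and lines for the mean of 2. The NCOA6 gene ID entry lay between 0 and 0.2 FPKM with TPL, and its RefSeq entry between 3.3 and 4.93 FPKM in all 8 libraries.

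Between TAM and NT cells none of the members passed the threshold. The DMSO libraries used here are also the controls of the TPL comparisons. As these are bulk libraries scaled to their own totals, fewer cells with a transcript and less of it per cell cannot be told apart, and no absolute amount of RNA was measured. In the comparison of TAM with NT cells, both with DMSO, the log2 fold changes ran from −0.31 (NCOA2, SE 0.68) to 0.35 (NCOA1, SE 0.18). A call needed an adjusted p no higher than 0.001 together with a change of 1.2 or more in size on the log2 scale. With edgeR's quasi-likelihood test, adjusted by Benjamini-Hochberg over all entries, 0 of 8 entries were called, beside 0.378% of all entries called higher and 0.271% called lower. DESeq2 also called 0, and 0 had an unadjusted p under 0.05. The lowest adjusted p was 0.37, that of NCOA1, the one member whose TAM libraries both lay above both NT libraries (25.0% of all entries do so). The 95% normal interval of its difference runs from −0.02 to 0.71 on the log2 scale. For NCOR1 the estimate was 0.03 (SE 0.14, adjusted p = 0.943) and for EP300 0.13 (SE 0.23, adjusted p = 0.824), whereas those of CREBBP (−0.21, SE 0.33, adjusted p = 0.805) and NCOA3 (−0.31, SE 0.32, adjusted p = 0.667) were below 0. In NT cells the replicates of these 2 genes were further apart than the NT and TAM means.

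NCOA6 had the largest fitted decrease with TPL of the members, and most of it lay in 1 of its entries. The gene ID entry (NM_001242539 and NM_014071) held 459.62 and 1004.65 expected counts in the NT libraries and 5.94 and 0 in NT + TPL. In TAM cells it held 754 and 554.25 counts with DMSO and 6.2 and 6.98 with TPL. All 4 treated libraries were thus far below all 4 controls. The fitted log2 fold change was −7.80 (SE 0.74) in NT cells and −6.58 (SE 0.67) in TAM cells, lower than in all but 0.614% and 0.773% of the entries tested. The size of a change to nearly no counts depends on the scale. With limma it was −3.56 and −3.40 on log2(FPKM + 1), and −6.11 and −5.63 with a pseudocount of 0.1.

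The RefSeq entry of NCOA6 (NM_001318240) differed less. Its counts in NT cells were 377.49 and 344.07 with DMSO, against 294.79 and 236.46 after TPL. TAM cells gave 373.9 and 345.16 counts with DMSO, against 289.49 and 329.72 after TPL. The treated libraries were again below their controls without overlap, as in 33.3% (NT) and 36.4% (TAM) of all entries. The log2 fold changes were −0.36 (SE 0.14) in NT and −0.17 (SE 0.14) in TAM cells. As a share of all NCOA6 counts, the gene ID entry made up 54.9% and 74.5% in NT and 66.9% and 61.6% in TAM cells. With TPL that share was 1.98% and 0% in NT and 2.10% and 2.07% in TAM cells.

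**Figure D2:**
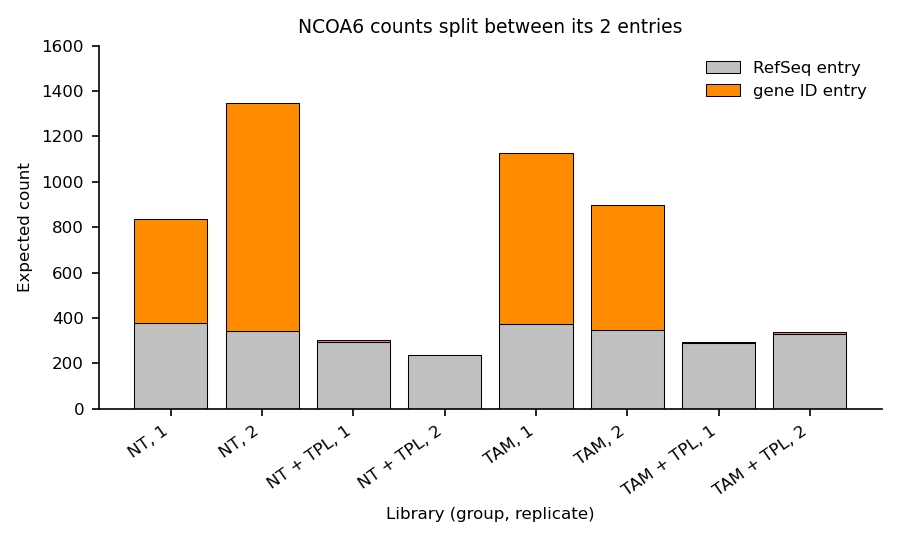
Expected counts (vertical axis) of NCOA6 in the 8 libraries, stacked by entry, with the RefSeq entry in grey and the gene ID entry in orange. The orange part makes up between 54.9% and 74.5% of the count in the 4 DMSO libraries and at most 2.10% in the 4 TPL libraries.

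Both entries are of 1 gene, so reads from any exon they share could be assigned to either, and the division between them is uncertain. Summed over its entries, NCOA6 was 3.86-fold lower with TPL in NT cells (log2 fold change −1.95, SE 0.24) and 3.10-fold lower in TAM cells (−1.63, SE 0.23). Of 713 genes that have both kinds of entry, 154 (21.6%) showed a difference of at least 1 log2 unit between the gene ID entry and the sum with TPL in NT, while 152 (21.3%) did so in TAM cells. The difference for NCOA6 was −5.85 in NT and −4.95 in TAM cells, and 33 and 25 of those genes had a more negative one.

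Of the p160 coactivators, NCOA2 had the lowest values with TPL. It went from 1.5 and 3.03 FPKM in NT to 1.25 and 0.21 in NT + TPL, and from 1.96 and 1.65 FPKM in TAM to 0.88 and 0.77 in TAM + TPL. Treated and control libraries did not overlap in either state, with the treated ones lower, and 33.3% (NT) and 36.4% (TAM) of all entries lay lower without overlap in this way, while 36.3% (NT) lay higher. The log2 fold changes, −1.66 (SE 0.71) and −1.18 (SE 0.70), carry wide errors because the NT + TPL libraries differ from each other. Without NT + TPL replicate 1 the value in NT cells was −3.37, and without replicate 2 of that group it was −0.88.

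NCOA1 was slightly lower with TPL, at 4.34 and 4.08 FPKM in NT + TPL and 5.07 and 6.02 FPKM in TAM + TPL. After TMM scaling its treated libraries lay below their controls in both states, as in 33.3% (NT) and 36.4% (TAM) of all entries. The log2 fold changes of NCOA1 were −0.30 (SE 0.19) and −0.27 (SE 0.18). NCOA3 had no common direction. Its level was 15.97 and 8.4 FPKM in NT + TPL, within the span of the NT controls at the upper end and below it at the lower end (log2 fold change −0.20, SE 0.32), and 15.84 and 15.53 FPKM in TAM + TPL, above both TAM controls (0.46, SE 0.32).

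CREBBP and EP300, the paired acetyltransferases, gave values like those of NCOA3. CREBBP read 8.66 and 4.47 FPKM in NT + TPL and 9.33 and 8.43 FPKM in TAM + TPL. EP300 read 8.8 and 5.62 FPKM in NT + TPL and 9.79 and 9.54 FPKM in TAM + TPL. In NT cells 1 treated library of each was above its controls and 1 below, and in TAM cells both treated libraries were above both controls, as in 38.3% of all entries. The log2 fold changes of CREBBP were −0.17 (SE 0.33) in NT and 0.46 (SE 0.33) in TAM cells, and those of EP300 −0.02 (SE 0.23) and 0.25 (SE 0.23).

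NCOR1, the corepressor, was lower in both states, by the same amount when measured on counts. Expected counts of 1147.94 and 1443.9 in NT cells stood against 805.83 and 777.85 after TPL. In TAM cells 1364.99 and 1337.94 stood against 810.59 and 884.5. All treated libraries were below all controls. Within a state, 33.3% (NT) and 36.4% (TAM) of all entries lay lower without overlap. The log2 fold change was −0.63 (SE 0.14) in NT and −0.63 (SE 0.14) in TAM cells, a 1.55-fold decrease in each. The FPKM values tell less of this in NT cells, at 14.64 and 19.71 with TPL beside 21.59 and 20.81 without, because the transcript length that RSEM used for NCOR1 varied between 5147.61 and 8439.31 bases among libraries. On log2(FPKM + 1) with limma the NT value was −0.30 and the TAM value −0.61, so on that scale the amounts were not the same.

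**Figure D3:**
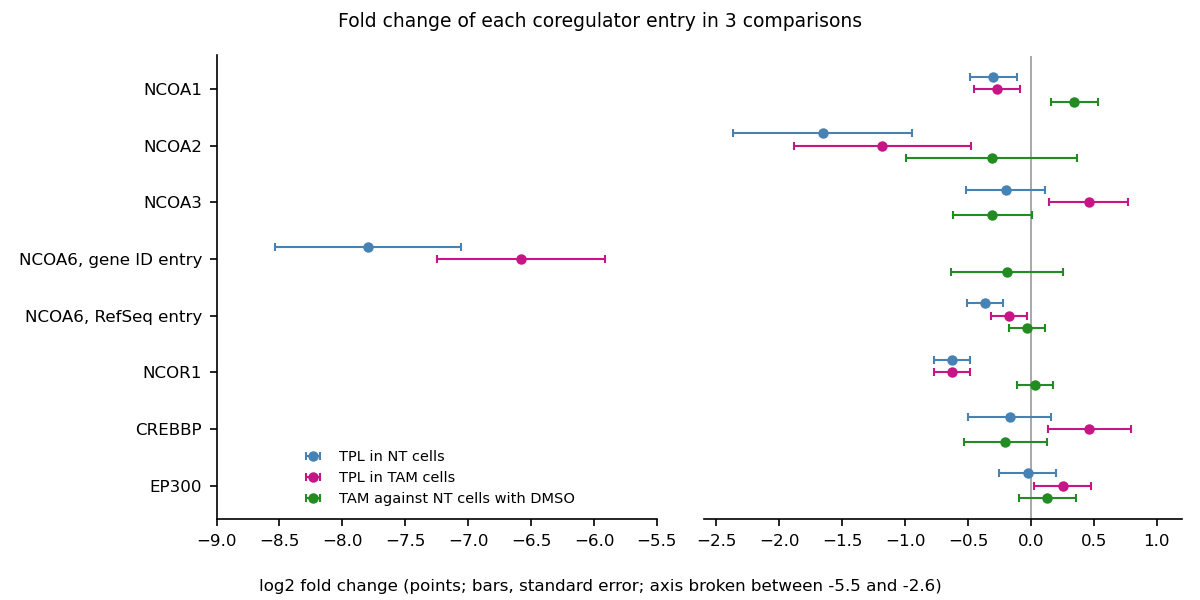
Log2 fold change (horizontal axis, broken) of each coregulator entry with TPL in NT cells (blue), with TPL in TAM cells (magenta) and between TAM and NT cells with DMSO (green), with bars for the standard error. The NCOA6 gene ID entry stands apart at −7.80 and −6.58, while all green points lie between −0.31 and 0.35.

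Across the 8 entries, 8 were below 0 after TPL in NT (median −0.33) and 5 in TAM cells (median −0.22), beside medians over all entries of 0.09 and 0.05. Of all entries, 46.7% (NT) and 47.9% (TAM) were below 0. The values of the members have to be read beside transcript length. Among 1574 entries with transcripts of at least 6000 bases, the 2 NT libraries differed by a median of −0.29 log2 units (replicate 1 minus replicate 2) and the NT + TPL libraries by 0.28, whereas TAM and TAM + TPL differed by 0.10 and −0.04. Replicate 1 was the higher library for 1 of 8 member entries in NT and for 7 of 8 in NT + TPL. The long entries had a median log2 fold change with TPL of −0.27 (NT) and −0.005 (TAM), and 61.6% (NT) and 50.3% (TAM) of them were below 0. Between TAM and NT cells with DMSO their median was −0.11 and 63.0% were below 0. Over all entries with a mean of at least 1 FPKM these values were −0.03 and 53.0%. The part of this length pattern in the members' values was not tested. CREBBP gave −0.69 in NT cells without NT + TPL replicate 1 and 0.23 without NT + TPL replicate 2.

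The entries whose course over the 8 libraries was nearest to that of each member were found by the root mean square distance of gene-centred log2(CPM + 1), over 14071 entries. CREBBP and NCOA3 were each among the 3 nearest of the other, at 0.11 log2 units, where the median distance of all entries was 0.60 from CREBBP and 0.59 from NCOA3. The nearest to EP300 was FURIN, a protease of the secretory pathway (0.06), and the nearest to NCOA1 was RGS10 (0.06). The nearest to NCOR1 were TMEM185A and ASNSD1 (both 0.07), followed by KMT2E, a relative of the KMT2 methyltransferases (0.07). To the NCOA6 gene ID entry the nearest was TP63, the basal epithelial transcription factor, at 0.56, where the median of all entries was 2.92. The NCOA6 RefSeq entry was nearest to TRIM68 (0.07) and NCOA2 to an entry of PCYT1A (0.21).

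RNAPII peaks were looked up next. The labels name the lists as peaks with a TSS, and between 85.5% (TAM) and 91.0% (TAM + TPL) of the peaks in a list held a TSS of the annotation used here. They give a start and an end with no height, so presence and width are all that can be compared, and with 1 list per condition there is no replicate check. The labels assign each list to both ChIP samples of its condition, but the peak names carry replicate 1 only. A listed or missing peak may thus rest on 1 ChIP sample. Of the 7 genes, 5 had a listed peak over the main TSS in all 4 lists, where 50.5% of the 11730 genes with at least 1 FPKM did. Peak names in the TAM list carry another cutoff (q 0.1) than those of the others (0.02), and 41.5% of them end in a letter. No name in the other lists does. The widths of the TAM list are therefore printed below but not compared with those of the others.

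At NCOA6 the peak covered the main TSS with a width of 649 bases in the NT list and 429 with TPL, and of 606 in the TAM list and 352 with TPL. It also covered a neighbouring TSS 21 bases downstream. The TSS of a transcript of 9311 bases, at chr20:33409442, lay in no listed peak in any condition. The peak at the promoter was thus listed under both TPL conditions, in which the gene ID entry held between 0 and 6.98 counts.

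At CREBBP the peak over the main TSS was 772 (NT), 486 (NT + TPL), 597 (TAM) and 544 bases wide (TAM + TPL). A further peak was listed with TPL. It spanned chr16:3929517-3930360 in NT + TPL and chr16:3929658-3930315 in TAM + TPL, over the TSS at 3930121 of a transcript of 7598 bases, and neither DMSO list had it. A TSS in both TPL lists and in neither DMSO list was found for 272 of 11730 genes (2.32%).

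NCOA2 gave the reverse pattern. Its main TSS lay in no listed peak, but a peak over the TSS at chr8:71314822 was in the NT list (chr8:71314567-71315289) and the TAM list (chr8:71314755-71315228), and in neither TPL list. Such a loss was found for 1640 of 11730 genes (14.0%). Over main start sites, 77.9% of the peaks of the NT list and 81.5% of those of the TAM list were still listed with TPL. NCOA1 had no peak over any of its 11 annotated start sites in any list, although it was read at 4.08 to 6.6 FPKM.

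NCOA3 kept 1 peak, of 1026 (NT), 876 (NT + TPL), 790 (TAM) and 628 bases (TAM + TPL). NCOR1 kept 1 peak, of 625, 660, 509 and 746 bases in the same order. EP300 had the widest, at 1961, 1786, 1147 and 1554 bases, and in TAM + TPL a small peak of 174 bases followed it downstream. The peak over the main TSS was thus narrower in NT + TPL than in NT at NCOA3, NCOA6, CREBBP and EP300 and wider at NCOR1. The median width of all peaks was 632 bases in the NT list and 553 in the NT + TPL list. With its further peak counted, the summed width at CREBBP was 772 bases in NT and 1330 in NT + TPL.

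**Figure D4:**
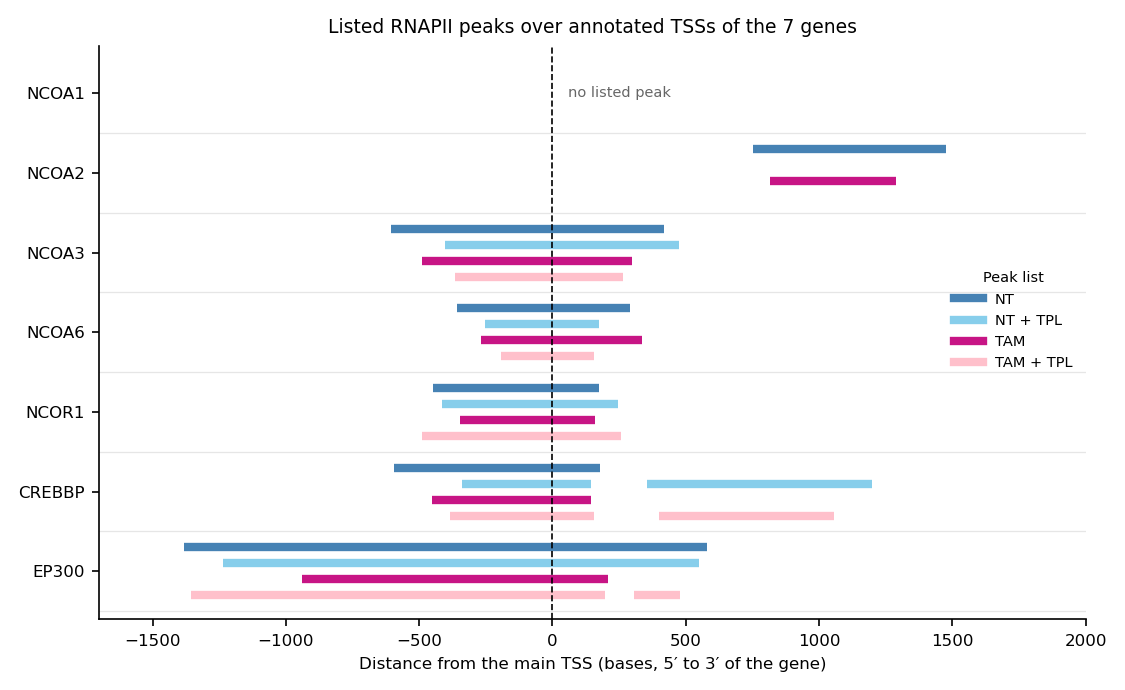
Listed RNAPII peaks over any annotated TSS of the 7 genes, drawn as distance in bases from the main TSS (horizontal axis, dashed line at 0, read in the direction of the gene), with 1 bar per peak and 1 colour per list. NCOA1 has no bar, NCOA2 has bars in the NT and TAM lists only, and CREBBP has a downstream bar of 844 and 658 bases in the TPL lists only.

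The genes that work with these coregulators were taken from a list of 67 partners, of which 63 genes (64 entries) could be tested. Like the members, this list was drawn up with earlier results of these data known. The calls and p-values of the partners with TPL are therefore no independent support. With TPL in NT cells 11 entries were called lower and 0 higher, where 2.71% and 1.22% of all entries were called lower and higher. In TAM cells 10 were called lower and 0 higher, beside 2.04% and 0.844%. With the entries of a gene summed, 17 partners were called lower in NT and 18 in TAM cells, beside 8.36% and 7.3% of all genes. With adjusted p up to 0.05 and no limit on fold, 29 were lower and 3 higher in NT cells and 27 lower and 4 higher in TAM cells (edgeR, all entries 19.8% and 17.2%, 18.6% and 14.3%). At an unadjusted p under 0.05, 6 were higher in NT cells and 4 in TAM cells, and by DESeq2 the calls higher were 0 and 1. The median log2 fold change of the partners was −0.70 in NT and −0.57 in TAM cells. The lower calls were not all kept in any fit with a library left out. Without NT + TPL replicate 1 in NT cells, some were kept but NCOA5 was lost. The same held without either NT + TPL library in TAM cells. These fits also made calls outside the main ones. Without any other library none of the main calls was kept. With adjusted p up to 0.05 and the fold limit kept, the calls lower lay between 16 and 26 in NT cells and between 17 and 20 in TAM cells when a library was left out.

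The methyltransferase partners of NCOA6 divided into those that fell and those that did not. PAXIP1 (PTIP), a subunit that is specific to these complexes, went from 10.17 and 11.89 FPKM in NT to 1.32 and 1.02 in NT + TPL (log2 fold change −3.24, SE 0.19, edgeR adjusted p = 0.000197). In TAM cells PAXIP1 gave −2.49 on the same scale (SE 0.18, adjusted p = 0.000367). Its binding partner PAGR1 fell in TAM cells (−1.92, adjusted p = 0.000671) and missed the threshold in NT cells (−1.41, adjusted p = 0.00151). WDR5, a core subunit of all KMT2 complexes, fell in both states (log2 fold changes −1.39 and −1.38, adjusted p = 0.0006 and 0.000707). The catalytic subunits KMT2C (−0.22 and −0.28) and KMT2D (−0.99 and −0.10) were not called, nor were ASH2L and DPY30. RBBP5, another core subunit, was higher at the looser limit of 0.05 in both states (0.50, adjusted p = 0.0181, and 0.68, adjusted p = 0.0066), and so was the demethylase KDM6A in TAM cells (0.84, adjusted p = 0.0192).

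None of the 6 genes listed for the NCOR complexes was called. HDAC3 was higher with TPL in NT cells at the looser limit only (0.47, adjusted p = 0.0246) and gave −0.04 in TAM cells. TBL1XR1, an exchange factor for corepressors, was at −1.26 in NT (adjusted p = 0.00653) and −1.72 in TAM cells (adjusted p = 0.00227), short of the threshold.

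Among other corepressors, CTBP2, a dehydrogenase-like corepressor, went from 46.52 and 52.02 FPKM in NT to 15.02 and 9.9 in NT + TPL and from 63.91 and 75.0 FPKM in TAM to 13.29 and 14.37 in TAM + TPL. Its log2 fold changes were −1.99 (SE 0.20, CTBP2 adjusted p = 0.000761) and −2.36 (SE 0.20, adjusted p = 0.000529). The demethylase KDM1A (LSD1) and the deacetylase HDAC2 fell in NT cells (−1.59, adjusted p = 0.000366, and −1.30, adjusted p = 0.000907) and missed the threshold in TAM cells at −1.15 (adjusted p = 0.00111) and −1.14 (adjusted p = 0.00149). HDAC5 was higher at the looser limit in both states (0.82, adjusted p = 0.0433, and 0.89, adjusted p = 0.0464).

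Of the further coactivators, NCOA5 fell in both states (log2 fold changes −1.4 and −1.2, adjusted p = 0.000524 and 0.000905). Its TAM value lay at the fold limit. In TAM cells it was not called with DESeq2, with limma, or with upper quartile, library size or GAPDH scaling. PPRC1, a relative of PGC-1, fell in NT cells (−1.80, adjusted p = 0.000883), and the acetyltransferase KAT5 (TIP60) fell in TAM cells (−2.87, adjusted p = 0.000846). Each was also lower in the other state but missed the threshold, PPRC1 in TAM cells (−1.40, adjusted p = 0.00231) and KAT5 in NT cells (−1.99, adjusted p = 0.00214). PPARGC1B (PGC-1β), named after its values were seen, had the largest fitted decrease of the partners with an SE under 1. In NT cells its FPKM was 3.97 and 4.91 before and 0.19 and 0.01 after TPL (−5.43, SE 0.65), and in TAM cells 2.87 and 3.15 before and 0.09 and 0.1 after (−5.02, SE 0.65), with adjusted p = 0.0014 and 0.00215, both short of 0.001. The acetyltransferases KAT2A and KAT2B were not called.

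Several receptors that the coregulators dock onto fell with TPL. The glucocorticoid receptor NR3C1 went from 6.93 and 9.46 FPKM in NT to 1.28 and 1.32 in NT + TPL and from 8.95 and 10.07 FPKM in TAM to 2.21 and 2.02 in TAM + TPL (log2 fold changes −2.69 and −2.23, adjusted p = 0.00032 and 0.000527). The retinoic acid receptor RARG fell in NT cells (−2.0) and TAM cells (−3.17) as well (adjusted p = 0.000731 and 0.000328). The orphan receptors NR2F2 and NR2F6 fell in both states, NR2F2 with −2.74 and −1.97 (adjusted p = 0.000221 and 0.000508) and NR2F6 with −2.09 and −2.15 (adjusted p = 0.000767 and 0.000796). RXRA, the partner of many receptors, missed the threshold at −1.27 (adjusted p = 0.00787) and −2.01 (adjusted p = 0.00176). VDR (0.08 and 0.17) and PPARG (0.40 and 0.43) were not called.

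**Figure D5:**
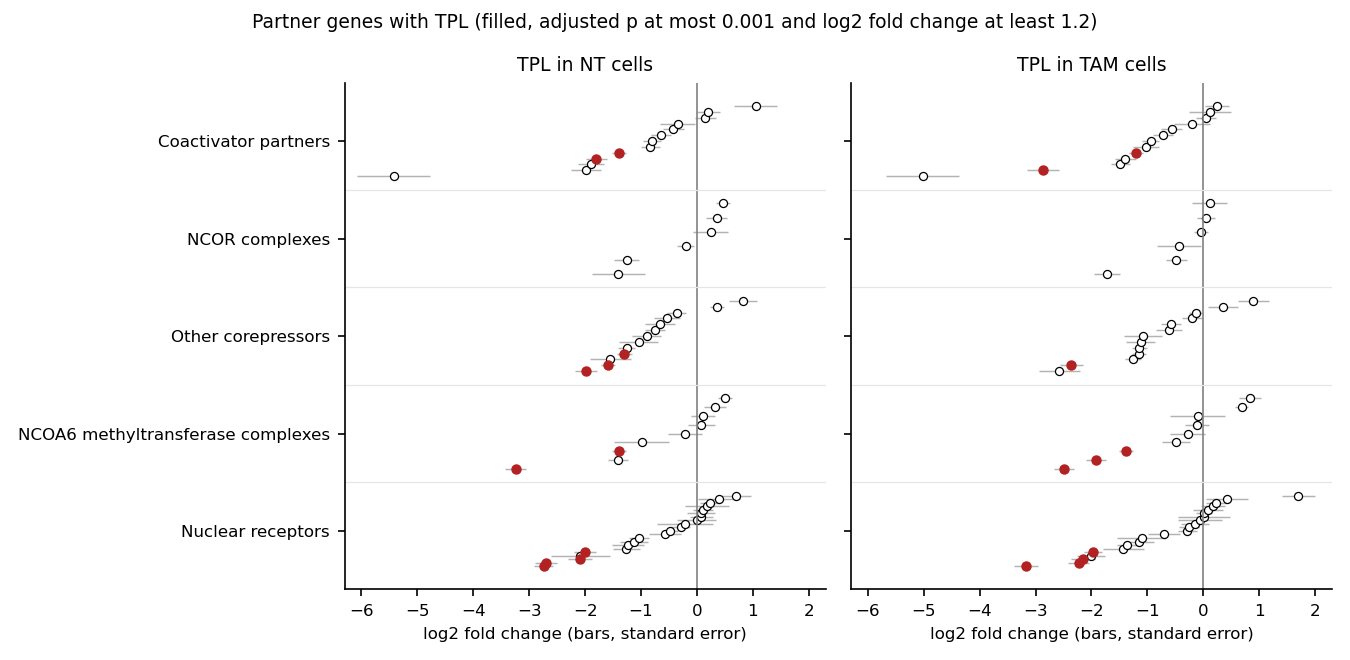
Log2 fold change with TPL (horizontal axis, bars for the standard error) of the partner genes in NT cells (left) and TAM cells (right), by list, with filled points for the 11 and 10 entries that passed the threshold. All filled points lie below 0, and 2 entries with an SE above 1 are not drawn.

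ESR1 was read at 199.65 and 248.49 FPKM in NT and at 95.3 and 68.49 FPKM in TAM cells. The line carries the receptor's ligand-binding domain in its v-Src fusion, and counts of the fusion and of the ESR1 gene cannot be told apart in these tables. ESR1 with TPL gave −1.13 in NT and −1.14 in TAM cells (adjusted p = 0.014 and 0.0151), and between TAM and NT cells with DMSO −1.44 (adjusted p = 0.0198). None of the 64 partner entries was called by edgeR between TAM and NT cells, while 8 higher and 11 lower had an unadjusted p under 0.05 and DESeq2 called 1 higher and 2 lower. With adjusted p up to 0.05 (3.46% of all entries higher and 3.39% lower), the partners higher in TAM cells were TBL1X (2.81, adjusted p = 0.0113) and NR2F1 (2.20, adjusted p = 0.0364). The partners lower in TAM cells were HDAC5 (−2.01, adjusted p = 0.0075), CORO2A (−0.75, adjusted p = 0.0325), PPARD (−0.62, adjusted p = 0.0446) and ESR1. These names were chosen after their values were seen.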

How the data were processed

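Poly-A RNA of 8 libraries (2 independent biological replicates per group) and RNAPII ChIP-Seq of the same 4 conditions were used. TPL was given at 125 nM. The authors aligned reads with Bowtie2 and deposited RSEM expected counts, not normalized, beside FPKM values from the same run. For the peaks, the authors mapped ChIP reads to hg19 by SOAP2, ran MACS against input (1.4.2 in the submitters' processing notes) and deposited lists labelled as peaks with a TSS. The 10 ChIP-Seq samples, inputs included, are not analysed here beyond these lists.

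Entries missing from a table were taken as 0. Symbols were matched by gene ID for 21077 entries and by RefSeq accession for 2382, with 145 unmatched. Expected counts were rounded and fitted with edgeR 4.0.16 in R 4.3.3 (TMM, its filter by group, quasi-likelihood test, 1 fit of 4 groups, Benjamini-Hochberg over all entries). Entries were called where the adjusted p did not exceed 0.001 and the log2 fold change was 1.2 or more in size. Sums over a gene's entries were fitted in the same way. The calls were tested on simulated data. Replicate totals differ by under 10%. The edgeR p-values rest on the spread between 2 libraries a group, pooled over the 4 groups and moderated toward that of other entries. Same-numbered libraries were not shown to be paired (correlation of deviations −0.197 to 0.0751).

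TSSs came from GENCODE release 44 on build 37, and promoters from that genome. The genes named are the members, partners called in a comparison, a fixed set of receptors and complex subunits, and the 3 nearest entries of each member. Some genes that this rule names are not reported here. The members and lists were chosen with earlier results of these data known. Alternatives were DESeq2 1.42.0, its size factors, upper quartile, library size or GAPDH scaling, 2 other filters, a replicate block, limma 3.58.1 on log2(FPKM + 1) and log2(FPKM + 0.1), summed entries, a looser adjusted p of 0.05, and each library left out. Crossed replicate numbers were added after seeing the data.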

Additional observations from a re-analysis of the deposited data

Results flagged for a closer look

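The thyroid hormone receptor THRB, a partner gene, had libraries on opposite sides of their controls with TPL in NT and TAM cells. It read 1.13 and 1.21 FPKM in NT and 0.89 and 0.67 in NT + TPL, but 0.6 and 0.43 FPKM in TAM and 1.79 and 1.68 in TAM + TPL. Every treated library was thus below its controls in NT cells and above them in TAM cells. Of all entries, 33.3% lay lower without overlap in NT cells and 38.3% lay higher without overlap in TAM cells. The pattern was looked for only among the members and among partners named by a fixed choice or by their values. The TPL effect in TAM minus that in NT cells was 2.28 on the log2 scale (SE 0.41), which did not pass the correction over all entries (edgeR adjusted p = 0.131). In TAM cells alone THRB gave 1.70 with TPL (adjusted p = 0.00594), and in NT cells −0.58 (SE 0.29, adjusted p = 0.154), which did not pass the looser limit of 0.05 either.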

How the results depend on the processing

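Of 64 partner entries, 11 were called lower with TPL in NT cells. That number was 20 with DESeq2, 4 with upper quartile factors, 7 with library size only, 0 with the replicate block, 2 with the crossed replicate block (chosen after seeing the data), 17 with the entries of a gene summed and 21 at an adjusted p of 0.05. In TAM cells 10 were called lower, and 17 with DESeq2, 5 with upper quartile factors, 6 when scaled to equal GAPDH, 0 with either block, 18 with entries summed and 19 at an adjusted p of 0.05. The 1 partner called higher in TAM cells with DESeq2, with entries summed, under the filter of 10 counts in all libraries, and at an adjusted p of 0.05, was THRB, and the count was 0 otherwise. Leaving out a library gave 0 to 4 calls lower in NT cells (4 without NT + TPL replicate 1, 0 without any other) and 0 to 10 in TAM cells (10 without either NT + TPL library, 0 without any other). Such fits and the block have fewer residual degrees of freedom, and the part of that in the lost calls was not tested. With the block 0 of all entries were called at 0.001 in either TPL comparison, but 22 and 19 partners were called lower at 0.05.

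Upper quartile factors shifted the median of all entries to 0.31 and 0.29 with TPL and GAPDH scaling to −0.26 and −0.07, and to −0.50 between TAM and NT cells. Under every alternative run, 0 members were called between TAM and NT cells, the lowest adjusted p being 0.106. Their direction there turned with GAPDH scaling for EP300 (−0.35), NCOA1 (−0.15) and NCOR1 (−0.45), with limma for NCOR1 (−0.021 with a pseudocount of 1 and −0.022 with 0.1), and with upper quartile factors for the NCOA6 RefSeq entry (0.003). Leaving out a library moved NCOA2 from −0.73 to 0.28, CREBBP from −0.55 to 0.068, EP300 from −0.08 to 0.31, the NCOA6 gene ID entry from −0.65 to 0.48, NCOA3 from −0.60 to 0.059, NCOR1 from −0.13 to 0.21 and the NCOA6 RefSeq entry from −0.10 to 0.033. With TPL the NCOA6 gene ID entry ranged from −12.48 to −6.85 in NT cells with a library left out, and could not be fitted with at least 10 counts in every library. The peak counts, 5 of 7 in each list, were 6 in the NT and TAM lists and 5 in the TPL lists with a peak within 1000 bases of the main TSS or over any TSS.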
